A study of Mus musculus with 12 samples.

Results

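Small nucleolar RNAs (snoRNAs), the related small RNAs of Cajal bodies and the genes named as their hosts were followed in mouse MTΔECad cells on the way to adipocytes. They were taken by symbol: every gene that starts with Snord, Snora, Scarna or Snhg, plus Gas5, with 10 or more counts in 2 or more libraries. Of 17090 genes in the count table, 127 had such a symbol and 72 met the count rule: 15 of 16 host genes and 57 of 111 small RNAs. The small RNAs comprised 30 of 68 C/D snoRNAs, 22 of 34 H/ACA snoRNAs and 5 of 9 Cajal body RNAs. The 55 genes below the rule had between 2 and 72 counts over all 12 libraries together, with a median of 23. Just inside it, by the second-highest library, were Snora41 with 10 counts and Scarna9 and Snord69 with 11, and just outside were the host Snhg9 and Snord53 with 9 each.

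MTΔECad cells are mouse breast cancer cells of mesenchymal type, and 12 libraries of bulk RNA covered 6 times with 2 numbered replicates each, the protocol naming 2 independent experiments as their origin. Cells were seeded at 20000 per cm2. By the protocol the 0 h cells had no added factor, the 6 h and day 3 cells received 200 ng/ml of human recombinant BMP2, the day 5 and day 7 cells BMP2 with 2 µM rosiglitazone, and the day 10 cells 2 µM rosiglitazone after BMP2 was withdrawn. There were no time-matched untreated cells, so time in culture and treatment cannot be told apart, and how the cells were derived, or whether they are 1 clone, is not stated by the labels. Levels are given as scaled CPM, which are counts over the library total after TMM scaling. Genes were called at an adjusted p below 0.05 by edgeR's quasi-likelihood F test over the 12740 genes tested, which held all 72 members.

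Library totals ran from 12820802 to 17570366 counts, and replicates correlated at 0.992 to 0.9946. The cells changed as labelled: 8 of 8 adipocyte markers were higher at day 10 than at 0 h, summing to 35409 and 34022 CPM at day 10, against 26.3 and 31.7 CPM at 0 h. The pair of proliferation markers Mki67 and Top2a summed to 23.2 and 27.3 CPM at day 10, against 2494 and 2464 CPM at 0 h. Of 6 mesenchymal markers, 3 were higher and 3 lower, and Cdh1, which encodes E-cadherin, averaged 0.402 CPM at day 10 and 0.56 CPM at 0 h. The 4 epithelial markers together summed to 284 and 258 CPM at day 10, against 719 and 733 CPM at 0 h, of which Krt8 and Krt18 made up nearly all and were lower, while Epcam was higher, with 5.29 and 6.2 CPM at day 10 and 0 counts in both 0 h libraries. The 4 endothelial markers summed to 3.49 and 3.98 CPM at day 10, against 0.808 and 0.556 CPM at 0 h. Of the leukocyte markers, 3 of 5 were in the table, and they summed to between 1.03 and 8.35 CPM in any library. Ptprc, which defines leukocytes, averaged 0 CPM at day 10 and 0 CPM at 0 h. In bulk RNA, fewer cells of a type and less RNA per cell cannot be told apart. The part of the lower proliferation markers in the results on snoRNAs and hosts was not tested.

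Box C/D snoRNAs carry a C box and a D box, bind fibrillarin and guide methylation of the ribose in ribosomal RNA, whereas box H/ACA snoRNAs bind dyskerin and guide pseudouridylation. Cajal body RNAs use the same proteins to modify the small nuclear RNAs of the spliceosome. In mammals nearly all of them lie in introns, are cut out after splicing and keep no poly-A tail. Many of their host genes encode ribosomal proteins or translation factors, and others, such as Gas5 and the Snhg genes, make a spliced RNA without a long reading frame. Several of these spliced RNAs start with a C and a run of pyrimidines, as messenger RNAs of the translation machinery do, and are degraded by nonsense-mediated decay while they are being translated.

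Sequences of 53 of the 57 small RNAs were read from GENCODE M21 transcripts on GRCm38. Of the C/D snoRNAs, 29 of 29 with a sequence held CTGA, the core of the D box, within the last 19 bases, and 21 of 29 held TGATGA, the core of the C box, within the first 25 bases. Both stood together in 0 of 19 H/ACA snoRNAs, of which 17 of 19 ended in ACA followed by at most 5 bases, against 4 of 29 C/D snoRNAs with such an end. The sequences below are those of the small RNAs whose values the results turn on, and the capitals mark these boxes. Snord47 (chr1:161038082-161038158, plus strand) lies in an intron of Gas5, Snord99 (chr4:132310691-132310764, plus) in Snhg12 and Snora24 (chr3:123507937-123508066, minus) in Snhg8. Snord52 (chr17:34950952-34951017, minus), the steepest fall of the set, lies in the noncoding gene 1110038B12Rik. Snord15a (chr7:99482785-99482932, minus) and Snord15b (chr7:99479563-99479707, minus) lie in introns of Rps3, a ribosomal protein gene, and Snord17 (chr2:144265979-144266216, minus) lies in an intron of Snx5, which encodes a sorting nexin. Scarna13 (chr12:105031075-105031349, minus), a Cajal body RNA inside Snhg10, has no capitals because boxes were not marked in that class.
Snord47: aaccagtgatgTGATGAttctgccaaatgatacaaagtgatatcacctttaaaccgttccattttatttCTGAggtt
Snord99: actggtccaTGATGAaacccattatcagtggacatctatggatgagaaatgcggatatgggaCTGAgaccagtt
Snord52: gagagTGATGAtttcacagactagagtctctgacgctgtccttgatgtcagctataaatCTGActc
Snora24: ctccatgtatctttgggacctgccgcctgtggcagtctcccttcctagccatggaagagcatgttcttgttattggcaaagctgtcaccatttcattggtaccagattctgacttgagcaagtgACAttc
Snord15a: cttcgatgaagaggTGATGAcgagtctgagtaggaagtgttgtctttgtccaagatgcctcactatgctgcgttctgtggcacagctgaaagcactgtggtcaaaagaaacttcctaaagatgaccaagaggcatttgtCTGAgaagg
Snord15b: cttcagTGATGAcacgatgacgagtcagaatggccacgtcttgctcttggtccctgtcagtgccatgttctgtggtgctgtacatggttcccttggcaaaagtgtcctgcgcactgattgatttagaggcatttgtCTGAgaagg
Snord17: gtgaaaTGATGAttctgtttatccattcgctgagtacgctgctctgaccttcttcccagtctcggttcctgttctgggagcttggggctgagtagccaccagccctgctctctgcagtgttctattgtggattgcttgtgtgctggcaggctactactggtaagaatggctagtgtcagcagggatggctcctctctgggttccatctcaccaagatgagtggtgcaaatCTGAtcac
Scarna13: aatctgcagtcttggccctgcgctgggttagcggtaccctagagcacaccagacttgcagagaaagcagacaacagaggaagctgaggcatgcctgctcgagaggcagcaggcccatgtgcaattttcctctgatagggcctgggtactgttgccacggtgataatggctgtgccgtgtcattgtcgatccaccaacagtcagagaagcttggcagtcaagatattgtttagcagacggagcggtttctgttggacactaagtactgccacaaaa

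The first question was what the host genes did over the protocol. Summed over the 15 hosts, the level was 751 and 727 CPM at 0 h, 740.4 and 765 at 6 h, 948 and 1084 at day 3, 384 and 387 at day 5, 323 and 329 at day 7, and 229 and 252 at day 10. The hosts thus stood highest together at day 3, at the end of BMP2 alone, and lowest at day 10, with no overlap between those libraries. At 6 h none of the 15 hosts was called by edgeR, 0 had an unadjusted p under 0.05 and DESeq2 called 0, where 0.746% of all genes tested were called. At day 3 against 0 h, 6 hosts were higher and 3 lower, that is 40% and 20% of them, against 33.1% and 35% of all genes tested (68.1% called in all). At day 10 against 0 h, 13 of 15 hosts were lower and 1 was higher, where 39.9% of all genes tested were lower and 42.8% higher (82.7% called in all). The median log2 fold change of the hosts was -1.56 at day 10 against 0 h, beside 0.06 over all genes tested. Between day 10 and day 3, 11 hosts were lower and 1 was higher, against 36.6% and 38.3% of all genes tested (74.9% called in all). Over all times, 14 of 15 hosts differed between some of them, as did 94.7% of all genes tested.

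**Figure D1:**
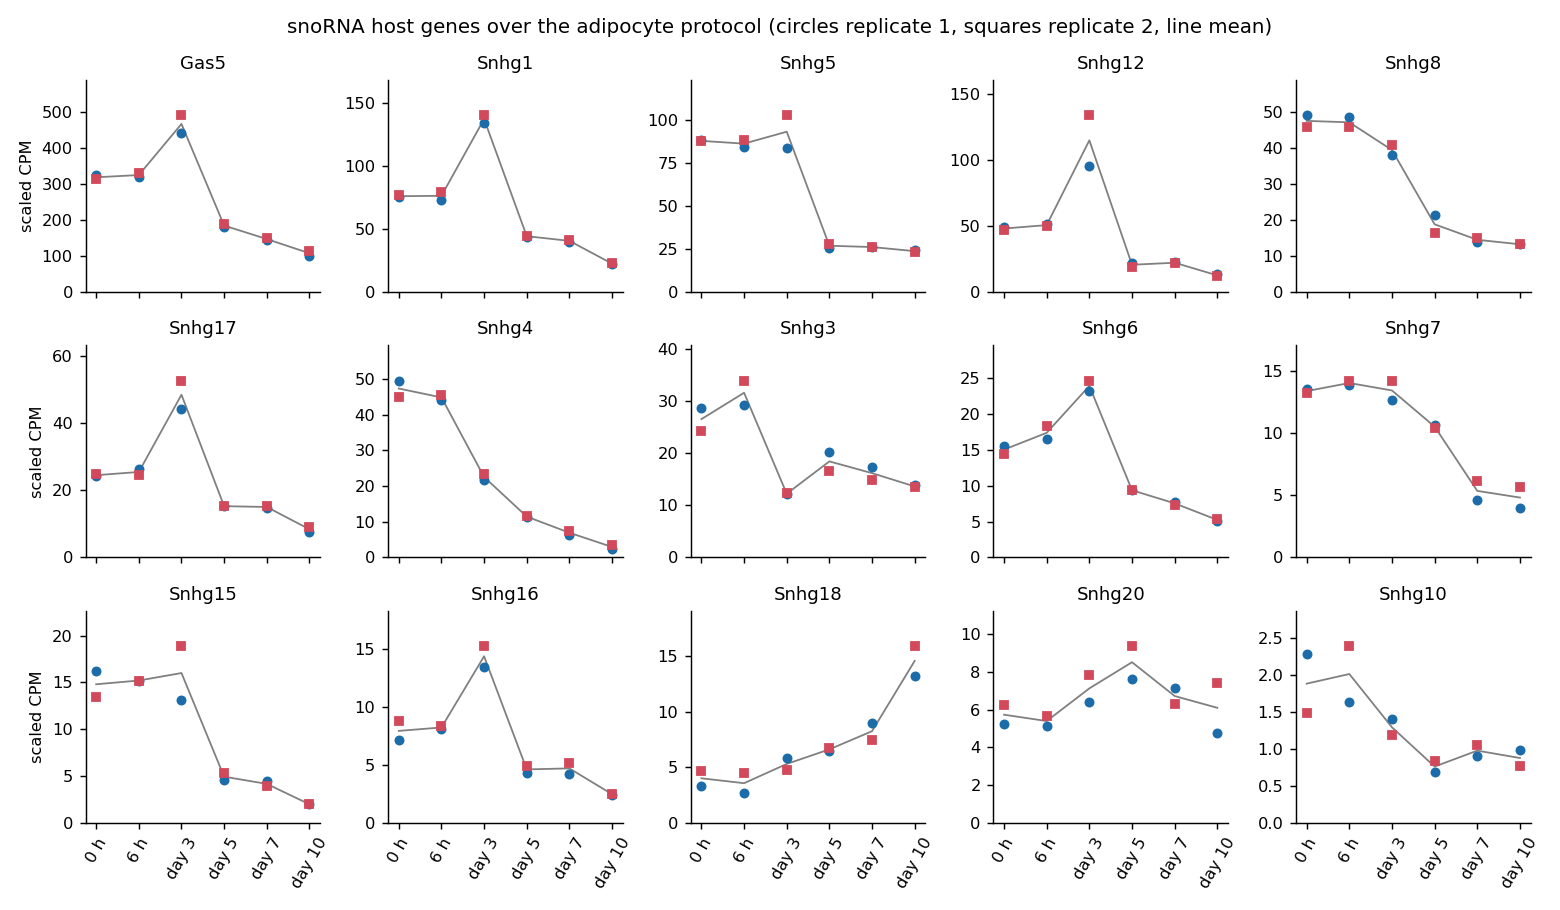
Scaled CPM of the 15 host genes (y axis, from 0, own scale in each panel) at the 6 times (x axis), with circles for replicate 1, squares for replicate 2 and a line through the means. Gas5, Snhg1, Snhg12, Snhg17, Snhg16 and Snhg6 stand highest at day 3 and lowest at day 10, while Snhg18 stands highest at day 10.

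A group of 6 hosts was higher at day 3 and lower at day 10, each against 0 h: Gas5, Snhg1, Snhg12, Snhg17, Snhg16 and Snhg6. Gas5, the growth arrest-specific transcript that carries a series of C/D snoRNAs in its introns, had 324 and 313 CPM at 0 h, 320.3 and 329 at 6 h, 442 and 491 at day 3, 181 and 188 at day 5, 144 and 150.1 at day 7, and 100.3 and 115 at day 10. Both day 3 libraries lay above the other 10 and both day 10 libraries below them. Its log2 fold change was 0.55 at day 3 against 0 h (SE 0.076, adjusted p = 6.38e-06 by edgeR) and -1.56 at day 10 against 0 h (SE 0.079, adjusted p = 7.84e-12 by edgeR). Snhg1, host of Snord22, had 75.2 and 76.7 CPM at 0 h, 73.1 and 79.4 at 6 h, 134 and 140.2 at day 3, 43.8 and 44.7 at day 5, 39.9 and 41.2 at day 7, and 22 and 23 at day 10. Here too both day 3 libraries were highest and both day 10 libraries lowest, with a log2 fold change of 0.85 at day 3 against 0 h (SE 0.072, adjusted p = 2.02e-08 by edgeR) and -1.75 at day 10 against 0 h (SE 0.082, adjusted p = 2.75e-12 by edgeR).

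Snhg12, which holds 4 small RNAs of the set, had 49.1 and 47.1 CPM at 0 h, 51.3 and 50.1 at 6 h, 95.8 and 134 at day 3, 22.1 and 19.2 at day 5, 22.5 and 21.9 at day 7, and 13.3 and 11.9 at day 10. The day 3 libraries were again highest, although they differed from each other more than those of Gas5 did, and the log2 fold change was 1.25 at day 3 (SE 0.12) and -1.93 at day 10 (SE 0.15), both against 0 h. Snhg17 had 44.3 and 52.8 CPM at day 3 and 7.62 and 9.19 at day 10, against 24.2 and 24.9 at 0 h. Snhg16 had 13.5 and 15.3 CPM at day 3 and 2.42 and 2.53 at day 10, against 7.12 and 8.78 at 0 h. Snhg6 had 23.2 and 24.7 CPM at day 3 and 5.11 and 5.36 at day 10, against 15.6 and 14.5 at 0 h. In each of these 3 hosts both day 3 libraries lay above, and both day 10 libraries below, both 0 h libraries. Their log2 fold changes at day 10 against 0 h were -1.54 (SE 0.13) for Snhg17, -1.69 (SE 0.21) for Snhg16 and -1.52 (SE 0.14) for Snhg6.

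Snhg4, Snhg3 and Snhg8 were lower at day 3 already. Snhg4, whose span holds Snora74a, had 49.6 and 45.1 CPM at 0 h, 44.2 and 45.5 at 6 h, 21.8 and 23.3 at day 3, 11.2 and 11.7 at day 5, 6.37 and 7.47 at day 7, and 2.42 and 3.45 at day 10. From day 3 on, the libraries of each time lay below all those of the time before. The fall at day 10 against 0 h was the steepest of the 15 hosts, with a log2 fold change of -3.99 (SE 0.15, adjusted p = 1.32e-13 by edgeR). Snhg3 had 28.7 and 24.3 CPM at 0 h, 29.2 and 33.9 at 6 h, 12.1 and 12.3 at day 3, 20.2 and 16.6 at day 5, 17.4 and 14.9 at day 7, and 13.8 and 13.4 at day 10. It was lowest at day 3, and its log2 fold change was -1.11 at day 3 against 0 h (SE 0.13) and -0.96 at day 10 against 0 h (SE 0.14). Snhg8 had 38 and 40.8 CPM at day 3 and 13.2 and 13.3 at day 10, against 49.1 and 45.9 at 0 h. Its log2 fold change was -1.84 at day 10 (SE 0.12, adjusted p = 3.00e-10 by edgeR), whereas that of -0.27 at day 3 (adjusted p = 0.0355 by edgeR) was not called with upper-quartile scaling, by DESeq2, without either 0 h library or without day 3 replicate 1.

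A further 4 hosts were not called at day 3 and were lower at day 10 than at 0 h. Snhg5, the host first described for U50 in human cells, had 83.7 and 103 CPM at day 3 and 24.3 and 23.3 at day 10, against 88.3 and 87.7 at 0 h. Its level was already 25.7 and 28.2 CPM at day 5, so that the 6 libraries of days 5 to 10 lay apart from the 6 earlier ones, and the log2 fold change was -1.89 at day 10 against 0 h (SE 0.10, adjusted p = 1.91e-11 by edgeR). Snhg15 had 13.1 and 18.9 CPM at day 3 and 1.97 and 1.99 at day 10, against 16.2 and 13.4 at 0 h. Snhg7 had 12.6 and 14.2 CPM at day 3 and 3.94 and 5.67 at day 10, against 13.5 and 13.2 at 0 h. In both, the day 10 libraries lay below those of 0 h, and the log2 fold changes were -2.89 for Snhg15 (SE 0.23) and -1.46 for Snhg7 (SE 0.18). Snhg10, which holds Scarna13, was the sparsest host, with 11 and 10 counts in the day 10 libraries and 0.985 and 0.766 CPM there, against 2.28 and 1.48 CPM at 0 h. Its log2 fold change was -1.09 (adjusted p = 0.0158 by edgeR), and it was not called by DESeq2, without 0 h replicate 1 (adjusted p = 0.14 by edgeR) or without day 10 replicate 2 (adjusted p = 0.113 by edgeR).

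Snhg18 went the other way and Snhg20 was called in none of the comparisons. Snhg18 had 3.3 and 4.7 CPM at 0 h, 2.67 and 4.45 at 6 h, 5.84 and 4.74 at day 3, 6.46 and 6.74 at day 5, 9 and 7.47 at day 7, and 13.2 and 15.9 at day 10. Its day 10 libraries lay above all others, with a log2 fold change of 1.85 against 0 h (SE 0.22, adjusted p = 6.80e-07 by edgeR) and 1.46 against day 3 (SE 0.21). Of the small RNAs in the table, Snord123 was annotated in an intron of Snhg18, but it had 19 counts over all libraries and was below the count rule. Snhg20 had 4.75 and 7.43 CPM at day 10, against 5.21 and 6.24 at 0 h, so the day 10 libraries lay on both sides of those of 0 h. Per kilobase of the deposited length the order of the hosts at day 10 was led by Snhg1 with 47.3 CPM per kilobase and Gas5 with 42.1, against 159.5 and 125 for the same genes at 0 h, and Snhg18 had 9.81 at day 10 and 2.7 at 0 h.

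Start sites of 13 hosts were found in the RefSeq table of GRCm38.p6, and the windows shown run from 25 bases before to 25 bases after the first base of the transcript. Capitals mark an unbroken run of C and T that begins at that base. A C at the start followed by at least 4 further bases that are C or T stood at a start site of 3 of 13 hosts (23.1%), namely Gas5, Snhg7 and Snhg8, and of 3.01% of 27025 genes. The letters CACGTG, which read the same on both strands, lay within 250 bases before to 50 bases after a start site of 1 of 13 hosts (7.69%), Snhg15, and of 8.09% of all genes. The windows are those of the 3 hosts with the run, of Snhg1 with a shorter one, and of Snhg18, whose direction differed. Gas5 is at chr1:161035141-161035191 (plus strand, the second of its 2 annotated starts), Snhg7 at chr2:26640219-26640269 (minus), Snhg8 at chr3:123508311-123508361 (minus), Snhg1 at chr19:8723462-8723512 (plus) and Snhg18 at chr15:32244637-32244687 (minus).
Gas5 start: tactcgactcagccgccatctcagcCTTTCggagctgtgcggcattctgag
Snhg7 start: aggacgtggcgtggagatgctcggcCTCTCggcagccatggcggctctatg
Snhg8 start: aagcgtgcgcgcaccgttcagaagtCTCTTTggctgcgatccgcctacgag
Snhg1 start: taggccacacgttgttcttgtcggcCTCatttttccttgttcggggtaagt
Snhg18 start: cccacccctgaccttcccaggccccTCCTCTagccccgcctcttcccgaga
Gas5, Snhg7 and Snhg8 fell at day 10, as Snhg1 did, whose run ended after 3 bases, and as did Snhg5 and Snhg16, whose annotated starts were a G. The run in Snhg18 starts with a T, as do those in Snhg12 and at 1 of the starts of Snhg17, both of which were lower at day 10. Whether the start sequence bears on these changes was not tested.

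The small RNAs as a group were dominated by a few abundant ones. Snora74a, Scarna13, Scarna10, Scarna2 and Snord17 held 79.8% of their summed CPM, and 38 of the 57 averaged under 20 counts a library. The 57 summed to 282 and 273 CPM at 0 h, 280.2 and 292 at 6 h, 589.7 and 386 at day 3, 309.6 and 322 at day 5, 328 and 363 at day 7, and 352 and 411 at day 10. The sum was thus higher at day 10 than at 0 h, whereas without these 5 it was 45.8 and 51.3 CPM at day 10, against 93.7 and 89.7 CPM at 0 h. Neither pair of sums overlapped. The small RNAs other than these 5 include those that met the count rule through 0 h, 6 h or day 3 alone, so part of their lower sum was built in.

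At 6 h none of the 57 small RNAs was called by edgeR, 2 had an unadjusted p under 0.05 and DESeq2 called 0. Of all genes tested, edgeR called 0.746% there. At day 3 against 0 h, 9 were higher and 6 lower, or 15.8% and 10.5%, each a smaller share than that of all genes tested (33.1% and 35%). At day 10 against 0 h, 31 of 57 were lower (54.4%, against 39.9% of all genes tested) and 4 were higher (7.02%, against 42.8%), with a median log2 fold change of -1.43. Part of this was built in, since 23 small RNAs met the count rule through 0 h, 6 h or day 3 alone and all 23 had a log2 fold change below 0. Of the other 34, 16 were lower (47.1%) and 4 higher at day 10 against 0 h, with a median log2 fold change of -0.70. Between day 10 and day 3, 25 were lower and 0 higher by edgeR, where 27 had an unadjusted p under 0.05 in either direction and DESeq2 also called 0 higher. Of all genes tested, 36.6% were lower and 38.3% higher there. Part of the lower calls between these times was built in too, since all of the same 23 had a log2 fold change below 0, and 8 were called. Of the other 34, 17 were lower (50%) and 0 higher. Over all times, 44 of 57 differed between some of them (77.2%), a smaller share than the 94.7% of all genes tested.

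By class, 19 of 30 C/D snoRNAs were lower and 1 higher at day 10 against 0 h, as were 11 lower and 1 higher of 22 H/ACA snoRNAs, and 1 lower and 2 higher of 5 Cajal body RNAs. In shares, 63.3% of the C/D and 50% of the H/ACA snoRNAs were lower, against 39.9% of all genes tested, of which 42.8% were higher. Each class holds small RNAs that met the count rule through 0 h, 6 h or day 3 alone, so part of this was built in. The depth of the small RNAs ran with the direction. With a mean of 20 counts or more, 7 of 19 were lower (36.8%, near the share of all genes) and 4 higher (21.1%), and the median log2 fold change was -0.14. Under 20 counts 24 of 38 were lower (63.2%) and all 38 log2 fold changes were below 0. These 38 hold all 23 that met the rule through the early times alone. Of the other 15, 9 were lower, with a median log2 fold change of -1.51 and all 15 below 0. The division by counts, like the one by length, was made after the values were seen. Length was that of GENCODE where a sequence was found. Of the 12 small RNAs of 140 bases or more, 4 were higher at day 10 against 0 h (33.3%, against 42.8% of all genes tested). Of the 45 shorter ones 31 were lower (68.9%, against 39.9%). Both length groups hold some of the 23 that met the rule through the early times alone. The part of depth, of length and of the library preparation in these counts was not tested.

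**Figure D2:**
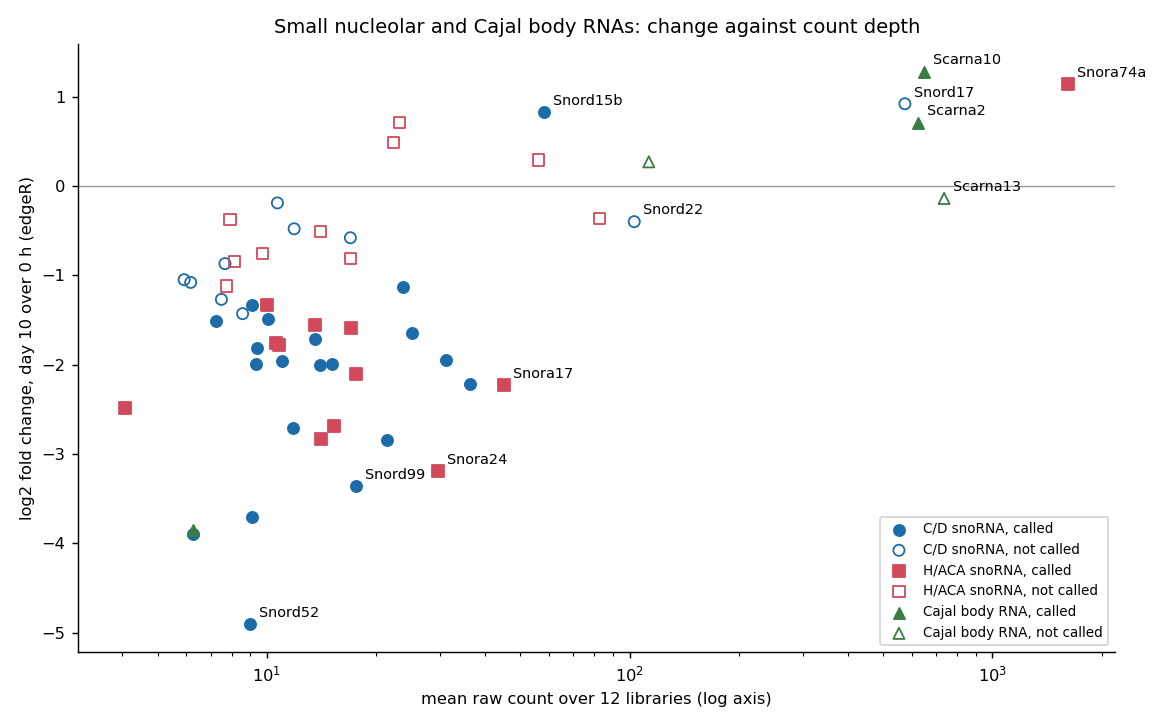
Log2 fold change of each of the 57 small RNAs at day 10 over 0 h (y axis) against its mean raw count over the 12 libraries (x axis, log scale), with filled symbols for those called by edgeR and colours for the class. The 4 that were higher all average over 20 counts, and the 38 that average under 20 counts, of which 23 met the count rule through 0 h, 6 h or day 3 alone, all lie below 0.

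Among the abundant small RNAs, 3 were higher at day 10. Snora74a, an H/ACA snoRNA also known as U19, had 69.5 and 62.3 CPM at 0 h, 61.6 and 72.8 at 6 h, 186 and 107 at day 3, 97.3 and 94.2 at day 5, 125 and 132 at day 7, and 134 and 156 at day 10. All 8 libraries from day 3 on lay above the 4 earlier ones, and the log2 fold change was 1.14 at day 10 against 0 h (SE 0.24, adjusted p = 0.00274 by edgeR). Scarna10, known in human as U85 and a guide for the U5 small nuclear RNA, had 50.3 and 68.7 CPM at day 10, against 23 and 26 CPM at 0 h. Its day 3 libraries, at 54.7 and 47 CPM, were already apart from those of 0 h, and the log2 fold change at day 10 was 1.28 (SE 0.14, adjusted p = 3.84e-07 by edgeR). Scarna2, a guide for the U2 small nuclear RNA in human, had 52.1 and 48 CPM at day 10, against 28.2 and 32.9 CPM at 0 h. These libraries did not overlap, and its log2 fold change was 0.71 at day 10 (SE 0.12, adjusted p = 5.31e-05 by edgeR) and 0.76 at day 3.

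Scarna13 and Snord17 were not called at day 10. Scarna13, known in human as U93, had 60 and 65.6 CPM at day 3 and 39.7 and 42 CPM at day 10, against 45.2 and 44.8 CPM at 0 h. Its log2 fold change was 0.48 at day 3 (SE 0.08, adjusted p = 4.96e-05 by edgeR) and -0.14 at day 10 (adjusted p = 0.137 by edgeR). Snord17, a C/D snoRNA of unusual length, had 30.3 and 45 CPM at day 10, against 22.7 and 17.4 CPM at 0 h. The pairs of libraries did not overlap, but the log2 fold change of 0.92 had an SE of 0.64 (adjusted p = 0.22 by edgeR), and it was called without either day 3 library (adjusted p = 0.021 without replicate 1 and 0.0251 without replicate 2, by edgeR) and with no filter on low counts.

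Snord15a and Snord15b, which lie in introns of the same gene and in human guide methylation of 28S ribosomal RNA, differed in direction. Snord15b had 4.03 and 5.13 CPM at day 10, against 2.86 and 2.35 CPM at 0 h, and Snord15a had 0.896 and 0.842 CPM at day 10, against 1.1 and 1.48 CPM at 0 h. Their log2 fold changes were 0.83 (SE 0.36, adjusted p = 0.0465 by edgeR) for Snord15b and -0.58 (SE 0.49, adjusted p = 0.278 by edgeR) for Snord15a, and the difference between them was not tested. The call of Snord15b was near the threshold: its adjusted p was 0.0504 with upper-quartile scaling, 0.0555 with a replicate block and up to 0.235 with a library left out, by edgeR. Their host Rps3 had 449 and 451 CPM at day 10, against 1130 and 1078 CPM at 0 h. Snora81, an H/ACA snoRNA in an intron of Eif4a2, had the next largest log2 fold change at 0.71, which was not called at day 10, with 1.16 and 1.99 CPM there and 1.32 and 0.68 CPM at 0 h, but was called without 0 h replicate 1 (adjusted p = 0.0355 by edgeR). It was higher at day 3, with 2.54 and 2.3 CPM and a log2 fold change of 1.30 (adjusted p = 0.004 by edgeR), except without 0 h replicate 2 (adjusted p = 0.0831 by edgeR).

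The steepest falls were in sparse RNAs, led by Snord52 (log2 fold change -4.91, adjusted p = 4.37e-05 by edgeR). Snord52, a C/D snoRNA that in human guides methylation of 28S ribosomal RNA, had 0 and 1 counts in the day 10 libraries, against 21 and 23 counts in the 0 h libraries. Its level in scaled CPM was 35.8 times as high at 0 h as at day 10, with a 95% counting interval of 6.09 to 1445. Snord93 and Scarna9 had 1 count each over both day 10 libraries, against 22 and 21 counts over both 0 h libraries, and Snord49b had 2 counts at day 10, against 35 at 0 h. The ratios of 0 h to day 10 were 17.9 for Snord93 (2.89 to 738), 17.1 for Scarna9 (2.75 to 706) and 14.2 for Snord49b (3.66 to 122). These intervals cover counting error alone, and these 4 RNAs met the count rule through 0 h, 6 h or day 3 alone, so that their lower level at day 10 is partly built in. Without 0 h replicate 2, Snord93 was no longer called (adjusted p = 0.121 by edgeR).

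The small RNAs inside Snhg genes and Gas5 allow host and guide to be followed side by side, in 12 pairs. At day 10 against 0 h, 7 of the 12 small RNAs were lower (58.3%) and 1 was higher, where 39.9% of all genes tested were lower and 42.8% higher. Some of the 12, among them Snord99 and Snora43, met the count rule through 0 h, 6 h or day 3 alone, so part of this was built in. Snord47, in an intron of Gas5, had 2.86 and 3.71 CPM at 0 h, 4.1 and 3.91 at 6 h, 3.05 and 3.35 at day 3, 1.12 and 1.85 at day 5, 1.45 and 1.05 at day 7, and 0.627 and 0.766 at day 10. At day 3, where Gas5 was higher than at 0 h, Snord47 lay within the range of its 0 h libraries, and at day 10 it lay below every other library, with a log2 fold change of -2.22 (SE 0.36, adjusted p = 2.02e-05 by edgeR). The log2 ratio of Snord47 to Gas5 counts was -7.22 and -7.16 at day 10, against -6.80 and -6.39 at 0 h.

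Snora24, an H/ACA snoRNA in Snhg8 that in human guides pseudouridylation of 18S ribosomal RNA, had 3.23 and 3.65 CPM at 0 h, 4.88 and 5.16 at 6 h, 1.21 and 1.38 at day 3, 0.622 and 0.358 at day 5, 0.208 and 0.864 at day 7, and 0.358 and 0.383 at day 10. It was low from day 3 on, with a log2 fold change of -3.19 at day 10 against 0 h (SE 0.45, adjusted p = 5.03e-06 by edgeR). Relative to Snhg8 its log2 ratio was -5.03 and -4.99 at day 10, against -3.91 and -3.64 at 0 h. Snora17 in Snhg7 had 0.985 and 1.15 CPM at day 10, against 4.55 and 5.5 CPM at 0 h, with a log2 fold change of -2.23 (SE 0.29), and its neighbour Snora43 had 0.358 and 0.383 CPM at day 10, against 1.25 and 1.3 CPM at 0 h, with one of -1.76 (SE 0.47). The day 10 and 0 h libraries did not overlap for either.

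Of the 4 small RNAs in Snhg12, 3 were lower at day 10 than at 0 h. Snord99 had 0.179 and 0.23 CPM at day 10, against 1.54 and 2.78 CPM at 0 h, with a log2 fold change of -3.36 (SE 0.53, adjusted p = 1.86e-05 by edgeR). Snora16a had a log2 fold change of -2.83 (SE 0.69) and Snora61 one of -1.59 (SE 0.54), which was not called without day 10 replicate 2 (adjusted p = 0.185 by edgeR). Snora44 had 0.448 and 0.383 CPM at day 10, against 0.661 and 0.742 CPM at 0 h, and was not called (adjusted p = 0.178 by edgeR). At day 3, where Snhg12 had risen, the log2 ratio of the 4 to Snhg12 had changed by -0.91 (Snora61) to -1.94 (Snord99) from 0 h. Snord22 in Snhg1 had 6.27 and 5.51 CPM at day 10, against 8.81 and 6.74 CPM at 0 h, and was not called (log2 fold change -0.40, adjusted p = 0.0987 by edgeR). Snora78, inside Snhg9, which itself was below the count rule, had 4.39 and 4.98 CPM at day 10, against 6.46 and 5.63 CPM at 0 h, and was not called either.

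Snora74a and Snhg4 moved furthest apart. The log2 ratio of Snora74a to Snhg4 counts was 0.49 and 0.47 at 0 h, 0.48 and 0.68 at 6 h, 3.09 and 2.20 at day 3, 3.11 and 3.01 at day 5, 4.29 and 4.14 at day 7, and 5.76 and 5.48 at day 10. The ratio was 35.4 times as high at day 10 as at 0 h, and the libraries of those times lay far apart. Scarna13 and Snhg10 had a log2 ratio of 5.27 and 5.71 at day 10, against 4.29 and 4.89 at 0 h, and Snord22 and Snhg1 one of -1.81 and -2.05 at day 10, against -3.09 and -3.50 at 0 h. In 6 of the 12 pairs the ratio was higher at day 10 than at 0 h and in 6 lower, of which 5 and 4 had no overlap between the libraries. Over all 55 pairs with an annotated host, 17 with a higher and 19 with a lower ratio had no overlap. Some of these small RNAs met the count rule through 0 h, 6 h or day 3 alone, so part of the lower ratios was built in.

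**Figure D3:**
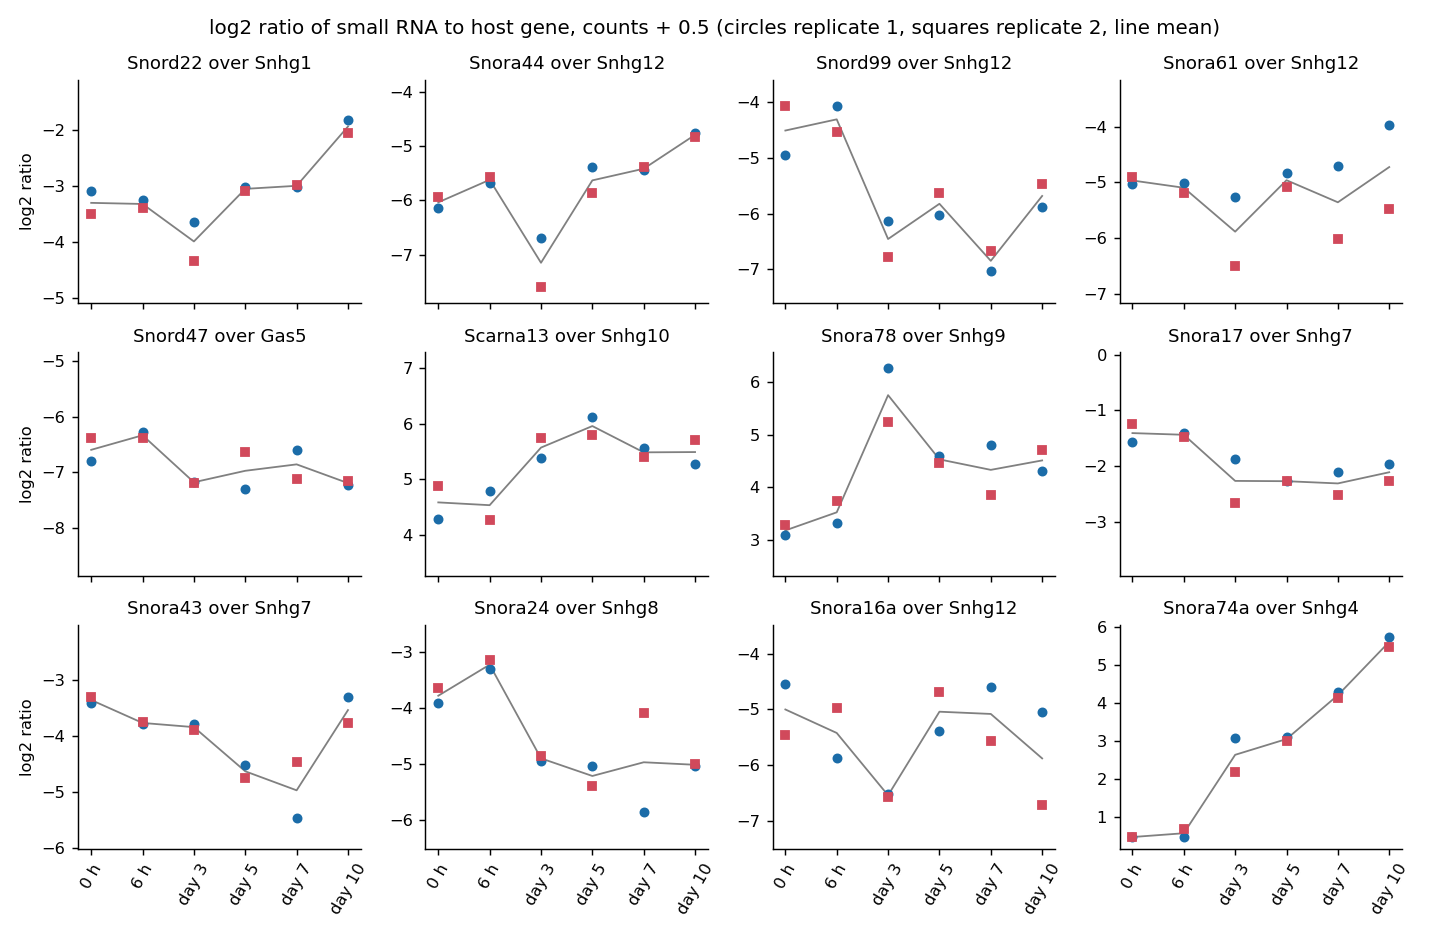
Log2 ratio of small RNA to host gene counts, each with 0.5 added (y axis, own scale in each panel), at the 6 times (x axis) for the 12 pairs inside Snhg genes and Gas5, with circles for replicate 1, squares for replicate 2 and a line through the means. The ratio of Snora74a to Snhg4 lies at 5.76 and 5.48 at day 10 and at 0.49 and 0.47 at 0 h, while that of Snord47 to Gas5 lies between -6.28 and -7.30.

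Over all 55 pairs of a small RNA with its annotated host, the log2 ratio changed by a median of -0.21 between day 10 and 0 h, over a range from -3.80 to 5.15, and the ratio was higher at day 10 in 22 pairs and lower in 33. The ratio has no test, and small RNAs of 1 host share its counts. The pairs hold small RNAs that met the count rule through 0 h, 6 h or day 3 alone, so part of the lower ratios was built in. After Snora74a, the ratio increased most for Scarna10 with Ncapd2, a condensin subunit, by 3.89, and for Snord17 with Snx5, by 3.00. Ncapd2 had 21.3 and 22.3 CPM at day 10, against 136 and 133 CPM at 0 h, and Snx5 had 101 and 105 CPM at day 10, against 454 and 431 CPM at 0 h. At the other end were Snord49b, at -3.80 with the noncoding gene 2410006H16Rik, Snord52, at -2.21 with 1110038B12Rik, and Snord2, at -2.19 with Eif4a2. Snord49b and Snord52 are among those that met the rule through the early times alone. They had 2 and 1 counts over both day 10 libraries. Eif4a2, which encodes an RNA helicase of translation initiation, had 452 and 511 CPM at day 10, against 218 and 227 CPM at 0 h, while Snord2 had 0.806 and 1.15 CPM at day 10, against 1.69 and 2.6 CPM at 0 h. Snord2 was lower at day 10 (log2 fold change -1.13, adjusted p = 0.0184 by edgeR), so host and guide differed in direction there as well.

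**Figure D4:**
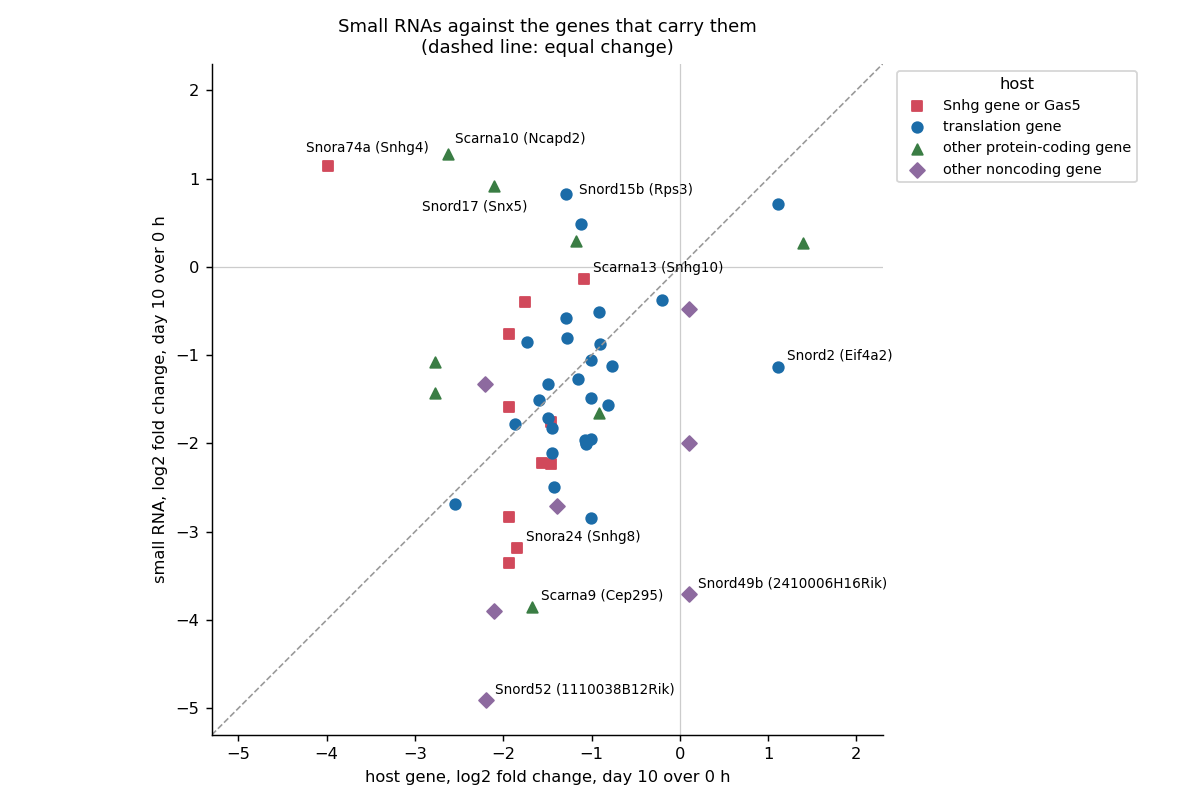
Log2 fold change of each small RNA (y axis) against that of its host gene (x axis), both day 10 over 0 h by edgeR, for the 54 pairs whose host was tested, with colours for the kind of host and a dashed line of equal change. Snora74a, Scarna10, Snord17 and Snord15b lie above 0 while their hosts lie below it, and Snord2 lies below 0 while Eif4a2 lies at 1.11.

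Most of the other host genes fell too. Of 27 protein-coding hosts, 24 were lower and 2 higher at day 10 against 0 h, and of the 20 among them that encode ribosomal proteins or translation factors, 18 were lower and 1 higher, where 39.9% of all genes tested were lower and 42.8% higher. Gnl3, which encodes nucleostemin and holds Snord19 and Snord69, had the largest decrease, with 49.4 and 53.2 CPM at day 10, against 364 and 335 CPM at 0 h (log2 fold change -2.77, SE 0.082). The ribosomal protein gene Rpl12, host of Snora65, had 1.7 and 0.996 CPM at day 10, against 7.64 and 7.98 CPM at 0 h. The 2 most abundant were Rack1, a ribosome-bound scaffold, with 577 and 582 CPM at day 10, against 1648 and 1615 CPM at 0 h, and Rpl4, with 576 and 564 CPM at day 10, against 1777 and 1677 CPM at 0 h. All 4 genes had day 10 libraries below those of 0 h. Rpl12 stood far below Rack1 and Rpl4 at both times, for which the cause was not tested. How reads with several matches were treated is not given, so its level as a host is uncertain. Of the small RNAs inside translation genes, 16 of 28 were lower and 1 was higher at day 10, and of those inside other noncoding genes 6 of 7 were lower, against the same shares of all genes. Both groups hold small RNAs that met the count rule through 0 h, 6 h or day 3 alone, so part of this was built in.

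At day 3 the 5 other noncoding hosts divided, 3 being higher and 2 lower than at 0 h, where 33.1% of all genes tested were higher and 35% lower. Zfas1, which holds Snord12, had 167 and 194 CPM at day 3 and 17.5 and 23.1 CPM at day 10, against 53.1 and 53.4 CPM at 0 h. It was thus high at day 3 and low at day 10 as Gas5 was, with log2 fold changes of 1.76 (SE 0.11) and -1.39 (SE 0.12). 2410006H16Rik, which holds Snord49a, Snord49b and Snord65, had 184 and 232 CPM at day 3 and 40.7 and 39.9 CPM at day 10, against 37.5 and 37.5 CPM at 0 h. Zfas1 and 2410006H16Rik are named here after their values were seen.

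The proteins that bind, assemble and trim snoRNAs were lower almost throughout. Of 26 such genes in a list that spans these roles, 20 were lower and 1 was higher at day 3 against 0 h, where 35% of all genes tested were lower and 33.1% higher. At day 10 against 0 h, 23 of the 26 were lower and 1 was higher, where 39.9% of all genes tested were lower and 42.8% higher. All 4 C/D core protein genes were lower at day 10, as were 3 of 4 H/ACA core protein genes, 12 of 13 assembly factor genes and 4 of 5 genes of trimming and debranching. Nop58, a core protein of C/D particles, had 39.2 and 36.5 CPM at day 10, against 388 and 354 CPM at 0 h (log2 fold change -3.30, SE 0.08, adjusted p = 6.33e-16 by edgeR). Dkc1, which encodes dyskerin, had 28.8 and 26 CPM at day 10, against 275 and 253 CPM at 0 h, and Gar1, its partner, had 2.87 and 1.99 CPM at day 10, against 23 and 22.7 CPM at 0 h. The groups did not overlap in these 3 genes, and the log2 fold changes of Dkc1 and Gar1 were -3.27 (SE 0.11) and -3.25 (SE 0.26). Xrn2, a nuclear exonuclease, had 165 and 171 CPM at day 10, against 305 and 312 CPM at 0 h (log2 fold change -0.88, SE 0.068). The exception was Parn, a deadenylase that trims H/ACA RNAs, with 36.6 and 40.5 CPM at day 10, against 28.4 and 28.1 CPM at 0 h (log2 fold change 0.45, adjusted p = 0.000459 by edgeR).

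Genes of nonsense-mediated decay, a route by which spliced host RNAs are removed, were mostly lower as well. At day 10 against 0 h, 8 of 10 were lower and 2 higher, against 39.9% and 42.8% of all genes tested, with a median log2 fold change of -0.61. Smg5 had 91.8 and 94.4 CPM at day 10, against 223 and 221 CPM at 0 h, the largest change of the 10 (log2 fold change -1.26, SE 0.07). Upf3b, which links the pathway to exon junctions, had 13.1 and 16.2 CPM at day 10, against 28.6 and 24.5 CPM at 0 h (log2 fold change -0.85, SE 0.17). Smg1, the kinase of the pathway, had 289 and 306 CPM at day 10, against 228 and 244 CPM at 0 h (log2 fold change 0.33, adjusted p = 0.0224 by edgeR). Smg6, the endonuclease, was the other one that was higher, with 63.2 and 59.3 CPM at day 10, against 34.8 and 39.2 CPM at 0 h.

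Other short RNAs without a poly-A tail were set beside the snoRNAs. Of 16 listed, 6 were in the table and 5 were tested, of which 2 were higher and 1 lower at day 10 against 0 h. Of all genes tested, 42.8% were higher and 39.9% lower. Terc, the H/ACA-type RNA of telomerase, had 1.34 and 1.61 CPM at day 10, against 8.59 and 8.9 CPM at 0 h (log2 fold change -2.55, SE 0.24). Rnu12, a spliceosomal RNA of the minor class, had 1.61 and 1.61 CPM at day 10, against 0.294 and 0.309 CPM at 0 h, and Vaultrc5, a vault RNA, had 4.3 and 3.98 CPM at day 10, against 1.4 and 1.05 CPM at 0 h. Neither of these pairs overlapped. Rpph1, the RNA of RNase P, was far more abundant, with 9666 and 9334 CPM at day 10, against 8937 and 8542 CPM at 0 h, and was not called (log2 fold change 0.12, adjusted p = 0.239 by edgeR), nor was Rmrp, the RNA of RNase MRP (log2 fold change -0.23, adjusted p = 0.386 by edgeR).

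Many small RNAs were higher in 1 of the day 3 libraries than in the other. Of 21 small RNAs with at least 40 counts in both libraries together, 12 (57.1%) were at least 1.5 times as high in replicate 1 as in replicate 2, with a median ratio of 1.55. The same held for 0 of 15 hosts, for 3 of 5 other short RNAs and for 2.69% of all genes of that depth. Snord17 had 132 CPM in replicate 1 and 37.7 in replicate 2, a ratio of 3.49, and Snora23, an H/ACA snoRNA in Ipo7, had 10.2 and 3.35 CPM. Of the 4 Cajal body RNAs of that depth, Scarna6 had a ratio of 2.15, and Scarna10, Scarna2 and Scarna13 had ratios between 0.906 and 1.16. At the other times between 0 and 3 small RNAs of that depth were 1.5 times as high in replicate 1. Of the 9 small RNAs that were higher at day 3 than at 0 h, 4 were so no longer without day 3 replicate 1, namely Scarna6, Snord19, Snord17 and Snord15b, and Scarna10, Snora81, Scarna2, Scarna13 and Snora74a remained. Snord19 had 1.21 CPM in replicate 1 and 1.32 in replicate 2, and its log2 fold change was 1.13 with both and 1.19 without replicate 1. The log2 fold change of Snord17 at day 3 was 2.09 with both libraries (adjusted p = 0.0218 by edgeR) and 0.92 without replicate 1, and it was not called without either 0 h library.

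**Figure D5:**
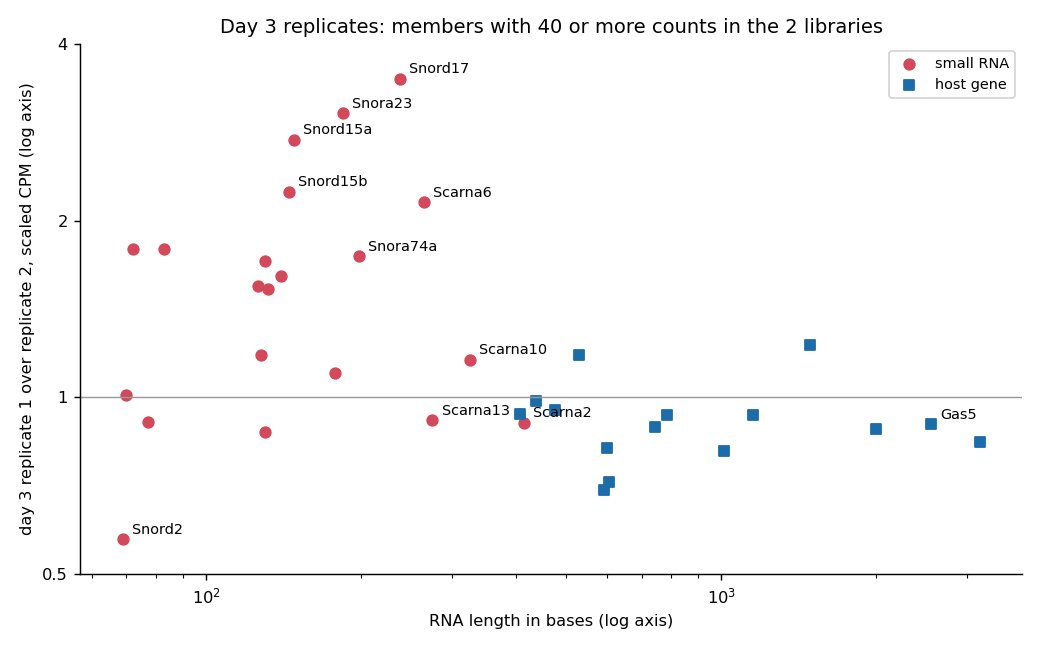
Scaled CPM in day 3 replicate 1 over replicate 2 (y axis, log scale) against the length of the RNA in bases (x axis, log scale) for small RNAs and host genes with 40 or more counts in the 2 libraries together. Snord17 lies at 3.49 and Snora23 at 3.05, while the hosts lie between 0.696 and 1.23.

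Placement and length limit what the counts of a pair can show. GENCODE places Snord22 and the 4 small RNAs of Snhg12 in exons of their hosts, and the deposited length of Snhg8, 785 bases, equals its whole span and so holds Snora24. By the same annotation, Snord95 and Snord96a overlap exons of Rack1, Snord45c of Rabggtb, Snora7a of Rpl32 and Snora26 of Dancr. Whether a read over such a small RNA was counted for both genes is not stated by the labels. The deposited length of Gas5, 2554 bases, is shorter than its span, and whether it covers Snord47 is not given. No GENCODE gene was matched to Snhg4, Snhg7 or Snhg16. Snora74a was placed inside Snhg4 by position, and an intron of Snhg4 around it was not established. Snora17 and Snora43 were placed inside Snhg7 by position, and whether they lie in its exons or introns was not established either. The deposited lengths of Scarna2 and Scarna10 were 61 and 71 bases, whereas GENCODE gives 414 and 325, so their levels per length and their length group are uncertain. The labels name a stranded kit, but how strand entered the counting is not given, and reads of Snora78 and Rps2, of Snora23 and 1600010M07Rik, of Gas5 and Zbtb37, of Snhg3 and Gm17300, and of Snhg6 and Mcmdc2, which lie on opposite strands, may not be separated. Many snoRNAs have near copies elsewhere in the genome. How reads with several matches were treated, for small RNAs or for host genes such as Rpl12, is not given.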

How the data were processed

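The authors deposited 1 table of unscaled counts, with a column for each of 12 libraries. The submitters' processing notes name STAR and mm10. Which tool counted the reads, with which strand setting and which gene models, is not given in the sources used here. Per the labels' protocols, libraries came from a stranded total RNA kit, although the sequenced RNA is also called poly-A+, so the recovery of RNAs without a poly-A tail is uncertain. Entrez identifiers were matched to symbols with RefSeq for GRCm38.p6 (17045), GENCODE M21 (4) or not at all (41). The deposited gene length was used for levels per kilobase alone.

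The model was fitted over all 12 libraries (edgeR 4.0.16, R 4.3.3) with a mean per time, TMM factors (0.819 to 1.154), filterByExpr (minimum count 10, minimum total 15; 12740 genes tested, 4350 removed), a prior count of 0.125 and robust quasi-likelihood F tests. P-values were adjusted by the Benjamini-Hochberg method and called below 0.05. The model left 6 residual degrees of freedom, and p-values measure the spread between the 2 libraries of a time, pooled over times, which may be partly technical. The common biological coefficient of variation was 0.0737. Standard errors were computed as the log2 fold change over the square root of F. Ratios of small RNA to host used counts plus 0.5. Where day 10 held 1 to 3 counts, a ratio with an exact 95% counting interval is given. DESeq2 1.42.0 was an alternative, with other scaling, other filters, a replicate block and each library left out in turn.

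A small RNA was paired with a gene that holds it on the same strand, whereas pairs with Snhg genes and Gas5 were set by position alone. No strand was found for Snhg4. All hosts are named, with the small RNAs inside them, the 5 largest rises, the 5 largest falls and the 5 most abundant, and, per further list, the 3 members of largest called change with the 2 of highest level; 1 gene that this rule names is not reported here, and other named genes were chosen after their values were seen. The members and lists were chosen with earlier results of these data known. The fit was tested on simulated data.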

Additional observations from a re-analysis of the deposited data

How the results depend on the processing

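The counts of host genes and of small RNAs kept within 1.5 times of their values under median-of-ratios and upper-quartile scaling, with no filter, with DESeq2 and with a replicate block, with 1 exception: small RNAs lower at day 3 against 0 h were 6, and 3 with DESeq2, for which the cause was not tested. A filter at a mean of 1 CPM left 25 of the 57 small RNAs to test, so that 11 rather than 31 were lower at day 10 against 0 h, 12 rather than 25 at day 10 against day 3, and 19 rather than 44 differed between any times. With a mean of 20 counts or more, an alternative chosen after seeing the data, 7 were lower at day 10 against 0 h. Upper-quartile scaling moved the median log2 fold change of all genes at day 10 against day 3 to -0.12, where that of the hosts was -2.25 and that of the small RNAs -1.33.

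With each library left out, small RNAs higher at day 3 against 0 h numbered 5 to 11 (9 with all), the 5 without day 3 replicate 1 or 0 h replicate 2, and those lower 3 to 7 (6 with all), the 3 without day 3 replicate 2. Those lower at day 10 against day 3 numbered 16 to 30 (25 with all), the 16 without day 10 replicate 2, and those higher 0 to 1 (0 with all), the 1 without day 3 replicate 1 or day 10 replicate 1. At day 10 against 0 h, 22 to 32 were lower, the 22 without day 10 replicate 1, and 3 to 5 higher, and hosts lower numbered 12 to 13. Among single members, 1672 values with a library left out kept direction and call, 43 lost the call, 12 gained one and 1 reversed, and under the other alternatives 820 kept both, 12 lost the call and 4 gained one. The log2 fold change of Snora74a at day 10 against day 3 was -0.02 with all libraries but 0.44 without day 3 replicate 1 and -0.36 without day 3 replicate 2, both called.

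Same-numbered replicates of different times had correlations of -0.0913 to 0.193, so the numbers were not taken to pair the samples. With the replicate block, 31 small RNAs were lower and 3 higher at day 10 against 0 h, and 13 hosts were lower and 1 higher. Depth limits the small RNAs: 38 of 57 averaged under 20 counts a library, and a count of 0 in a library allows up to 3 counts.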
